A study of Mus musculus with 4 samples.

Results

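The genes described here are transcription factors known for the resting, naive state of T cells: Lef1, Klf2, Klf6, Foxo1, Foxo3, Foxp1, Bach2, Satb1 and Tsc22d3. They were named for this role, with earlier results of these data known, and every probe set that the platform annotation pairs with exactly 1 gene was taken where that gene was among them. This gave 35 probe sets for 9 of the 10 genes named, out of 18193 genes with such a probe set on the array. The other gene named, Tcf7, has no probe set paired with it in the annotation used and is not analysed here.

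A naive T cell holds its cell cycle, growth and migration in a resting program until it meets antigen, and these regulators act in it. LEF1, a DNA-binding partner of beta-catenin, and the chromatin organiser SATB1 shape T cell development. The forkhead factors FOXO1, FOXO3 and FOXP1 and the zinc finger factor KLF2 maintain quiescence, survival and recirculation, and FOXO1 is itself an activator of Klf2. BACH2 represses effector differentiation genes, KLF6 is an immediate early zinc finger factor, and Tsc22d3 encodes GILZ, a glucocorticoid-induced leucine zipper protein that dampens T cell receptor signalling. AKT kinase, switched on by antigen and by cytokine receptors, drives FOXO factors out of the nucleus.

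The RNA came from mice carrying a knock-in of green fluorescent protein (GFP) at Foxp3, the lineage factor of regulatory T cells, so every population described here carried the knock-in allele. Per the labels, the mice were B6/129 F2 animals aged 5 to 8 weeks, and spleen and lymph node cells of 25 males were pooled. Cells bearing CD8, B220, CD11b, NK1.1 or DX5 were depleted, and CD4+ cells were sorted by GFP and by CD25, the IL-2 receptor alpha chain, into CD25- Foxp3-, CD25+ Foxp3-, CD25lo Foxp3+ and CD25hi Foxp3+ populations. No treatment is given in the labels, and no marker of naive or memory cells is named among the sort markers. Total RNA of each population went through 2 cycles of in vitro amplification onto 1 Affymetrix Mouse Genome 430 2.0 array.

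With 1 array per population there was no replicate error and no test could be made. Differences were read by size: a gene counted as higher or lower between 2 arrays at 2-fold or more, and as separating the arrays 2 against 2 where the lower value of one pair exceeded the higher value of the other by at least 1.5-fold. Values are deposited intensities on a linear scale, of which the probe set with the highest mean log2 intensity stands for a gene. In a sorted population, fewer cells of a type and less RNA per cell cannot be told apart by these values. Intensities of different genes are not compared, since probe sets differ in brightness for the same amount of RNA.

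The arrays had median intensities between 15.0 and 15.6, and 9622 genes counted as measured because a probe set reached an intensity of 32.5 in at least 1 array. Foxp3 followed the sort, at 1308 and 1117 in CD25hi and CD25lo Foxp3+ cells against 16.8 and 17.6 in CD25+ and CD25- Foxp3- cells. Il2ra, which encodes CD25, was 1562 on the CD25hi Foxp3+ array, 288 on the CD25lo Foxp3+ array, 283 on the CD25+ Foxp3- array and 22.3 on the CD25- Foxp3- array, so the CD25lo and CD25+ populations had alike levels of this RNA on that probe set. The summed intensity of 7 T cell marker genes lay between 35819 and 38679 in 3 of the populations and was 24887 in CD25+ Foxp3- cells. Summed markers of CD8 T and NK cells (11 genes) were 695 and 741 in the Foxp3+ populations against 2631 in CD25+ and 2601 in CD25- Foxp3- cells, and between the latter 3 of the genes (Ncr1, Gzmk, Eomes) were 2-fold higher and 3 (Klrd1, Prf1, Gzma) lower in CD25+ cells. The sum of 10 B cell genes was highest in CD25+ Foxp3- cells, at 2249. It was 1545 in CD25- Foxp3-, 1112 in CD25lo Foxp3+ and 521 in CD25hi Foxp3+ cells. H2-Aa alone read 1877, 1098, 375 and 132 in that order, most of the sum in the Foxp3- populations. The other measured B cell genes did not share one order. Blk and Cd22 were highest in CD25+ Foxp3- cells, and Ms4a1 and Ly86 in CD25- Foxp3- cells. Fcmr and Cd79b were highest in CD25lo Foxp3+ cells, at 479 and 118, and lowest in CD25+ Foxp3- cells, at 40.3 and 58.4. Between the Foxp3- populations, Blk and Cd22 were 2-fold higher and Ms4a1 lower in CD25+ cells. Pax5 was everywhere at the floor, an intensity of 10.1 under which values were not told apart. Sums of 12 myeloid genes and of 6 red cell and platelet genes were highest in CD25- Foxp3- cells, where 8 of the 9 genes peaked, at 1745 and 659. They were lowest in CD25hi Foxp3+ cells, at 1178 and 90.2, and Cd14, Itgam, Siglech and Hba-a1 were at the floor throughout. Of the myeloid sum, Cst3 alone read 907 in CD25- Foxp3- and 944 in CD25hi Foxp3+ cells. Between the Foxp3- populations, 2 myeloid genes (Fcer1g, Adgre1) were 2-fold higher and 3 (Lyz2, Csf1r, S100a8) lower in CD25+ cells. The part of all these marker genes in the results below was not tested.

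All 9 genes were measured, and 8 of them had their highest intensity in CD25- Foxp3- cells, the population in which 30.7% of all measured genes were highest. Foxo1 was the exception, with its highest value in CD25hi Foxp3+ cells, where 17.7% of all measured genes peaked. On the brightest probe sets Klf2, Klf6, Foxo1, Foxo3 and Tsc22d3 were lowest in CD25+ Foxp3- cells, as were 30.6% of all measured genes. Lef1, Foxp1, Bach2 and Satb1 were lowest in CD25lo Foxp3+ cells, as were 27.4%. For Lef1 these populations lay only 1.07-fold apart, and its second probe set was lowest in CD25+ Foxp3- cells. None of the 9 was lowest in CD25hi Foxp3+ or CD25- Foxp3- cells, where 13.6% and 28.4% of all measured genes were lowest. With so small a share in CD25hi Foxp3+ cells, an absence there says little about 9 genes.

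**Figure D1:**
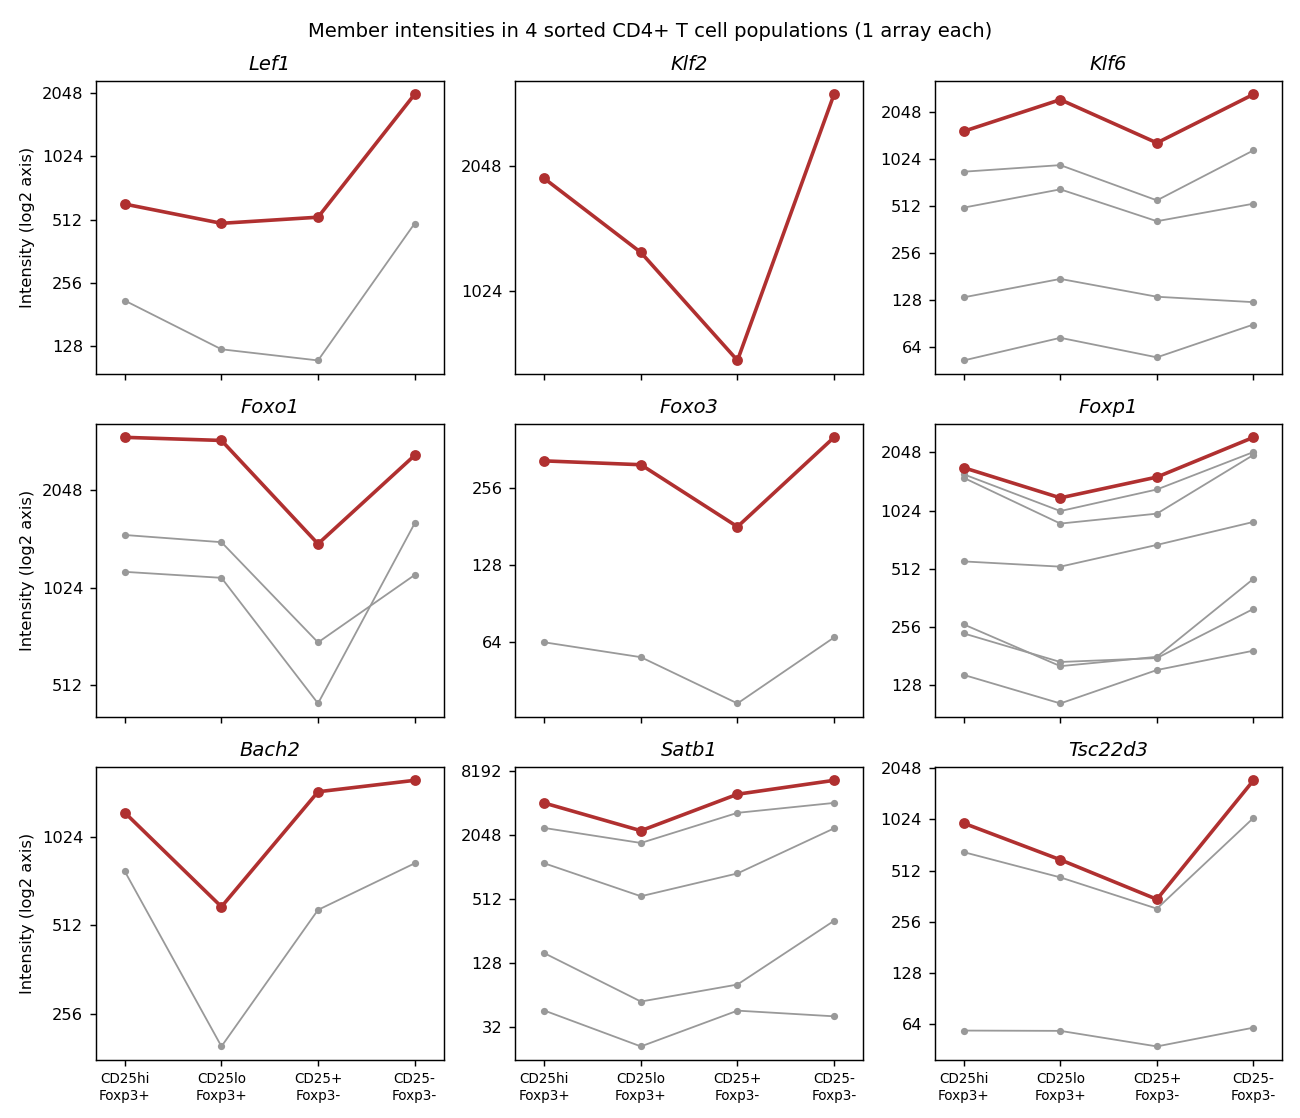
Intensity on a log axis of each gene in the 4 sorted populations, 1 array each, with the probe set that stands for the gene in red and its other measured probe sets in grey. All but Foxo1 peak in CD25- Foxp3- cells, at 2026 for Lef1 and 1734 for Tsc22d3, and the low point lies in CD25+ Foxp3- or CD25lo Foxp3+ cells.

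Promoter windows of 250 bases before each RefSeq start site were read for these genes from the GRCm38.p6 table, which held 20 windows for the 9 genes, some of them overlapping. The windows shown are those of Klf2 and Tsc22d3, whose levels followed each other most closely, and of Bach2 and Lef1, which share a short run of bases. They run 5′ to 3′ along the gene's own strand, and capitals mark matches to the motifs searched.
Klf2, chr8:72318812-72319061, plus strand: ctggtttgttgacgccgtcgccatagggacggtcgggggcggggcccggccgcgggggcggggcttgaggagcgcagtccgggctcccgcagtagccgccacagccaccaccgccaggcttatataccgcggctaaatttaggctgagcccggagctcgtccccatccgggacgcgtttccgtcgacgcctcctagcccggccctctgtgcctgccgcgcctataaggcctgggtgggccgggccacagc
Tsc22d3, the second start site, chrX:140600523-140600772, minus strand: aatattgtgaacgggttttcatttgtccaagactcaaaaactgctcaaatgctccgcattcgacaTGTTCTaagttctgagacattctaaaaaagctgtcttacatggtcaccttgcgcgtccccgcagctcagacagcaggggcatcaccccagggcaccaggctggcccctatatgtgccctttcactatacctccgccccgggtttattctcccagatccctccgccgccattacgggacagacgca
Bach2, chr4:32417185-32417434, plus strand: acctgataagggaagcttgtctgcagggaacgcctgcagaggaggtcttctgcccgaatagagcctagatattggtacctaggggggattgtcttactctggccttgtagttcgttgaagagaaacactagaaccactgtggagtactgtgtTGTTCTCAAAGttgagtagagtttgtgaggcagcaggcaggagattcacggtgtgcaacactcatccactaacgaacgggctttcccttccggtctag
Lef1, the fourth start site, chr3:131156044-131156293, plus strand: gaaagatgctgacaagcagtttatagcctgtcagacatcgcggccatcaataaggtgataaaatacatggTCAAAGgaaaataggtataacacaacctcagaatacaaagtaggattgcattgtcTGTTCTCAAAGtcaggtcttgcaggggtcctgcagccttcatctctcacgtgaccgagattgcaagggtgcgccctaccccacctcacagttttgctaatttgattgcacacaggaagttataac
Both strands were searched for CTTTGA, the core of TCF and LEF sites, for TGTTTAC, a forkhead core, for CCACACCC, a KLF box, for TGAGTCA, an AP-1 and BACH core, and for AGAACA, part of the glucocorticoid receptor site. CTTTGA stood in 4 of the 20 windows, or 20%, against 13.8% of 32851 windows over all genes, and 10.5% of the 10096 windows of measured genes. These 4 belonged to Lef1, Bach2, Foxp1 and Tsc22d3. AGAACA stood in 4 of the 20 windows, those of Bach2, a Tsc22d3 start and a pair of Lef1 starts, against 16.1% of all windows and 10.9% of those of measured genes. TGTTTAC, CCACACCC and TGAGTCA, found in 3.17%, 3.20% and 4.46% of all windows and 2.22%, 3.39% and 2.96% of those of measured genes, had no match in these 20. In the Bach2 and Lef1 windows the AGAACA and CTTTGA matches overlapped in the run TGTTCTCAAAG, 11 bases long. That run was picked after it was seen, and it stood in 13 of the 32851 windows, or 0.0396%, from 13 genes. These matches describe letters in the window and show no binding.

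Lef1 divided CD25- Foxp3- cells from the other populations. On its brighter probe set it read 2026 on the CD25- Foxp3- array, 607 on the CD25hi Foxp3+ array, 526 on the CD25+ Foxp3- array and 491 on the CD25lo Foxp3+ array. The CD25- Foxp3- array was thus 3.34-fold above its nearest neighbour, while the other 3 lay within 1.24-fold of each other and in no order beyond the 1.5-fold size. On the log2 scale Lef1 differed from CD25- Foxp3- cells by -1.74 on the CD25hi Foxp3+ array, -2.04 on the CD25lo Foxp3+ array and -1.95 on the CD25+ Foxp3- array. A second Lef1 probe set had 490 on the CD25- Foxp3- array and 210, 123 and 109 on the CD25hi Foxp3+, CD25lo Foxp3+ and CD25+ Foxp3- arrays, with the same high population. Unlike the brighter one, it put CD25hi Foxp3+ cells 1.71-fold above CD25lo Foxp3+ and 1.93-fold above CD25+ Foxp3- cells.

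Read from the brightest probe set of each gene, Lef1 was the only one of the 9 that was 2-fold lower in all 3 populations, and the only one lower in CD25hi Foxp3+ cells, a comparison in which 3.74% of all measured genes were lower and 7.09% higher at that size. Both Lef1 probe sets were 2-fold lower in all 3, and so were 2 dimmer Satb1 probe sets, with -1.09 and -1.01 in CD25hi Foxp3+ cells. On the brightest probe sets no gene of the 9 was 2-fold higher in any population than in CD25- Foxp3- cells.

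TCF and LEF proteins act with beta-catenin and with Groucho (TLE) and BCL9 cofactors. Of 15 measured genes among those partners and targets, 2 were lower and none higher than in CD25- Foxp3- cells in each of the 3 comparisons. For this and the later list counts against CD25- Foxp3- cells, the shares of all measured genes lower and higher were 3.74% and 7.09% for CD25hi Foxp3+, 6.88% and 9.09% for CD25lo Foxp3+, and 6.43% and 12.1% for CD25+ Foxp3- cells. In CD25+ Foxp3- cells these were Bcl9l, a beta-catenin cofactor, with a log2 difference of -1.54, and Axin2, a feedback inhibitor and common target of the pathway, with -1.28. Axin2 read 370.4 on the CD25- Foxp3- array, 243 on the CD25lo Foxp3+ array, 188 on the CD25hi Foxp3+ array and 153 on the CD25+ Foxp3- array, so its highest population was that of Lef1. The family relative Tcf7l1 was 34.5 on the CD25hi Foxp3+ array and 13.0 on the CD25- Foxp3- array and at the floor intensity of 10.1 in the others. Tcf7l1 thus had readings little above the floor.

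Klf2, a zinc finger factor that drives expression of the exit receptor S1pr1, had a graded pattern on its only probe set. It read 3040 on the CD25- Foxp3- array, 1908 on the CD25hi Foxp3+ array, 1267 on the CD25lo Foxp3+ array and 697 on the CD25+ Foxp3- array. Each step in this order was at least 1.5-fold, namely 1.59, 1.51 and 1.82. The span from end to end was 4.36-fold, wider than that of 93.6% of measured genes. S1pr1 itself had 688 on the CD25- Foxp3- array, 606 on the CD25lo Foxp3+ array, 532 on the CD25hi Foxp3+ array and 298 on the CD25+ Foxp3- array, with the same lowest population.

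Tsc22d3 followed the same order as Klf2 with a wider span. Its brightest probe set read 1734 on the CD25- Foxp3- array, 971 on the CD25hi Foxp3+ array, 592 on the CD25lo Foxp3+ array and 347 on the CD25+ Foxp3- array. The steps were 1.79-, 1.64- and 1.71-fold and the whole span 5.00-fold. A second probe set repeated the order at 1043, 657, 467 and 306, and the last was nearly flat, between 47.4 and 61.1, with its low point also in CD25+ Foxp3- cells. With the mean of its probe sets in place of the brightest, the Tsc22d3 difference of CD25lo Foxp3+ from CD25- Foxp3- cells went from -1.55 to -0.92, short of 2-fold.

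Over the 4 populations the centred log2 values of Klf2 and Tsc22d3 differed by a root mean square of 0.10, the smallest distance between any pair of the 9 genes. Among 2900 genes that were above the floor everywhere and spanned at least 2-fold, the genes nearest to Klf2 were Mtmr10 at 0.09, Tsc22d3 at 0.10 and Dnah8 at 0.12. Nearest to Tsc22d3 were Dnah8 at 0.05, Klf2 at 0.10 and Rgs11 at 0.16. With 4 points per gene, such likeness is a description of these arrays.

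Glucocorticoid response genes, of which Tsc22d3 is a classic member, did not share its pattern as a list. Of 18 measured, CD25 marked 4 lower and 2 higher genes among Foxp3- cells, and their median difference was -0.08. The higher ones were Il1r2, the decoy receptor for IL-1, at 322.5 against 24.6, and Zbtb16, the PLZF factor of innate-like T cells, at 82.2 against 17.1. Both CD25- Foxp3- readings lie under the filter of 32.5, so no fold is given. The kinase gene Sgk1 stood at -1.87 and Txnip, a brake on glucose uptake, at -1.51. In the 24 early response and handling stress genes 1 was lower and 2 were higher in that comparison, with a median of -0.23, the higher ones being Egr2 at 1.67 and Atf3, at 75.1 against 30.0, and the lower one Zfp36 at -1.06. Those counts do not exceed the shares of all measured genes, 6.43% lower and 12.1% higher.

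Klf6, an immediate early member of the same family, had another pattern. Its brightest probe set had alike values in CD25- Foxp3- cells, at 2637, and CD25lo Foxp3+ cells, at 2439, and lower ones in CD25hi Foxp3+, at 1532, and CD25+ Foxp3- cells, at 1291. It was the only gene of the 9 in which the CD25hi Foxp3+ and CD25+ Foxp3- pair lay at least 1.5-fold below the other pair, a split by the CD25 labels though Il2ra itself was alike in CD25+ Foxp3- and CD25lo Foxp3+ cells. This pattern was held by 0.187% of measured genes, with 1.10% the other way. Its 4 other measured probe sets did not share it at that size. From CD25- Foxp3- through CD25+ Foxp3- and CD25lo Foxp3+ to CD25hi Foxp3+ cells, one read 1157, 554, 931 and 845 and the next 528, 408, 652 and 498. The dimmer ones read 124, 134, 175 and 133, and 89.3, 55.1, 73.4 and 52.6. All 5 read higher in CD25lo than in CD25hi Foxp3+ cells, the reverse of every other measured probe set of the 9 genes, of which 25 were higher in CD25hi cells. With the mean of its probe sets the CD25 separation of Klf6 was lost, and its difference between CD25+ and CD25- Foxp3- cells went from -1.03 to -0.61.

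Of the KLF relatives 10 were measured, and among Foxp3- cells 3 of them were lower and 1 was higher with CD25. Klf7 had 834 on the CD25- Foxp3- array, 479 on the CD25hi Foxp3+ array, 327 on the CD25lo Foxp3+ array and 226 on the CD25+ Foxp3- array, the order of Klf2. Klf13, also a quiescence-linked factor, read 2497, 1723, 1569 and 900.5 in that order of populations. Klf4, which restrains T cell proliferation, ran the other way, with 698 on the CD25+ Foxp3- array and 300.3 on the CD25- Foxp3- array. Klf1, an erythroid factor and also one of the red cell markers, was the other one lower, at 46.3 against 107.

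Foxo1 set the CD25+ Foxp3- population apart from the other 3. Its brightest probe set read 2974 on the CD25hi Foxp3+ array, 2909 on the CD25lo Foxp3+ array and 2617 on the CD25- Foxp3- array, within 1.14-fold of each other, and 1397 on the CD25+ Foxp3- array. The step down to CD25+ Foxp3- cells was 1.87-fold from its nearest neighbour. Of its other measured probe sets, one had 1488, 1414, 1120.5 and 695 in the same order of populations, and the other had its highest value in CD25- Foxp3- cells, at 1615 against 1146, 1098 and 451. CD25+ Foxp3- cells were lowest on all 3.

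Foxo3 was lowest in the same population. Its values were 404 on the CD25- Foxp3- array, 327 on the CD25hi Foxp3+ array, 316 on the CD25lo Foxp3+ array and 181 on the CD25+ Foxp3- array, and the last step was 1.75-fold. Its other measured probe set read 66.8, 63.9, 55.9 and 36.9 in that order. Foxo1 and Foxo3 lay at a root mean square distance of 0.21 from each other, nearer than either lay to Lef1, Bach2, Satb1 or Tsc22d3. Foxo4, a further relative, was 108 on the CD25hi Foxp3+ array, 79.7 on the CD25lo Foxp3+ array, 55.0 on the CD25+ Foxp3- array and 55.1 on the CD25- Foxp3- array.

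Genes that FOXO factors are known to activate did not all follow. Of 17 measured targets, 4 were lower and none higher with CD25 among Foxp3- cells, and the median was -0.39. Those lower were Klf2 at -2.12, the PI3K inhibitor Pik3ip1 at -1.48, S1pr1 at -1.21 and the insulin receptor substrate Irs2, at 17.9 against 37.9, the former under the filter. In the Foxp3+ populations, targets lay on both sides: 2 were higher and none lower in CD25hi cells, and 4 were higher and 3 lower in CD25lo cells. Sesn1, a stress-induced FOXO target that restrains mTOR, read 5502 and 5847 in CD25hi and CD25lo Foxp3+ cells against 1710.2 and 1857 in CD25+ and CD25- Foxp3- cells, and was named after its values were seen.

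Of 16 measured genes that link PI3K and AKT to FOXO, 2 were lower and 1 was higher with CD25 among Foxp3- cells, and the median was -0.44. The higher one was Ywhag, a 14-3-3 protein of the kind that holds phosphorylated FOXO in the cytoplasm, at 1447 against 499. The lower ones were Sgk1, at 952 against 3478, and Pik3ip1, at 944 against 2636. RNA levels say nothing of where FOXO protein lay in the cell.

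On its brightest probe set Foxp1, which restrains IL-7 receptor expression in naive T cells, was 2450 on the CD25- Foxp3- array, 1707 on the CD25hi Foxp3+ array, 1526 on the CD25+ Foxp3- array and 1192 on the CD25lo Foxp3+ array. No step between neighbours reached 1.5-fold, the largest being 1.44, so the order holds only from end to end, at 2.06-fold. On all 7 measured Foxp1 probe sets CD25- Foxp3- cells were highest and CD25lo Foxp3+ cells were below both CD25hi Foxp3+ and CD25- Foxp3- cells. Il7r, which encodes that receptor, was likewise highest on the CD25- Foxp3- array, at 6659, with 5075 on the CD25+ Foxp3- array and 3565 and 3465 on the CD25hi and CD25lo Foxp3+ arrays. Foxp4, a relative of Foxp1, was 112.5 on the CD25hi Foxp3+ array and 47.4 on the CD25- Foxp3- array, with 70.5 and 70.8 in the others.

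Bach2, the repressor of effector genes, was low in CD25lo Foxp3+ cells alone. Its brightest probe set read 593 there, against 1241 on the CD25hi Foxp3+ array, 1464 on the CD25+ Foxp3- array and 1601 on the CD25- Foxp3- array. Those 3 lay within 1.29-fold of each other, and the step down to CD25lo Foxp3+ cells was 2.09-fold. The other measured probe set had the same low population, at 198 against 782.5, 579 and 834. Bach1, its close relative, was flat at 499 to 520.

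Satb1, the chromatin organiser that the literature describes as repressed by Foxp3, had 6746 on the CD25- Foxp3- array, 4993 on the CD25+ Foxp3- array, 4124 on the CD25hi Foxp3+ array and 2263 on the CD25lo Foxp3+ array on its brightest probe set. Its values did not separate by Foxp3: CD25hi Foxp3+ and CD25+ Foxp3- cells differed by 1.21-fold, under the 1.5-fold size. CD25lo Foxp3+ cells lay 1.82-fold below their nearest neighbour. They were lowest on all 5 measured Satb1 probe sets, among them one at 1116 on the CD25hi Foxp3+ array, 546.5 on the CD25lo Foxp3+ array, 896 on the CD25+ Foxp3- array and 2381 on the CD25- Foxp3- array. That probe set and a dimmer one were 2-fold lower than in CD25- Foxp3- cells in all 3 other populations, while the brightest was so only in CD25lo Foxp3+ cells, so the Satb1 probe sets disagreed. Bach2 and Satb1 lay at a distance of 0.14, second only to Klf2 and Tsc22d3 among pairs of the 9 genes.

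Genes that BACH2 is known to hold down, or that share its DNA sites, were read beside it. Of 11 measured, 3 were higher and 1 was lower on the CD25lo Foxp3+ array than on the CD25- Foxp3- array, and the median was -0.04. Prdm1, the Blimp-1 repressor of effector differentiation and a known BACH2 target, read 627 on the CD25lo Foxp3+ array, 280.2 on the CD25hi Foxp3+ array, 74.7 on the CD25+ Foxp3- array and 41.2 on the CD25- Foxp3- array. Batf, an AP-1 factor, was 1544, 1101, 715 and 474 in the same order. Gata3 was higher by 1.18, and the small MAF protein gene Maff stood at -1.02. Prdm1 was thus highest where Bach2 was lowest, while CD25hi Foxp3+ cells had both more Prdm1 than CD25- Foxp3- cells, by 2.77, and a Bach2 level within 1.29-fold of theirs.

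Compared with CD25- Foxp3- cells, the 9 genes had a median log2 difference of -0.67 on the CD25hi Foxp3+ array, -1.26 on the CD25lo Foxp3+ array and -1.03 on the CD25+ Foxp3- array, where all measured genes had 0.02, -0.05 and -0.01. In CD25lo Foxp3+ cells 6 of the 9 were 2-fold lower, namely Lef1, Klf2, Foxp1, Bach2, Satb1 and Tsc22d3, and none was higher, against 6.88% of all measured genes lower and 9.09% higher. In CD25+ Foxp3- cells 5 were lower, namely Lef1, Klf2, Klf6, Foxo3 and Tsc22d3, and none was higher, against 6.43% lower and 12.1% higher over all genes. These comparisons share the CD25- Foxp3- array, so an error of that array would enter all 3.

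**Figure D2:**
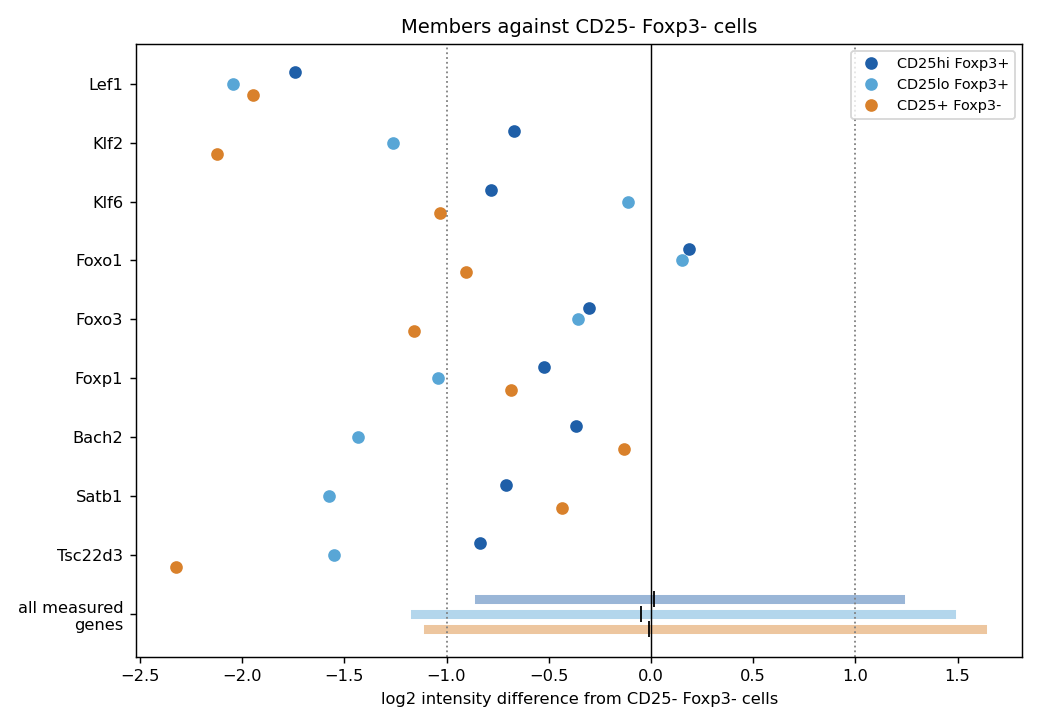
Difference in log2 intensity of each gene in 3 populations from CD25- Foxp3- cells (points, 1 array each), with the median (tick) and the 5th to 95th percentile (bars) of all measured genes at the foot and dotted lines at 2-fold. Lef1 lies between -1.74 and -2.04 in all 3 populations, Klf2 and Tsc22d3 reach -2.12 and -2.32 in CD25+ Foxp3- cells, and Bach2 and Satb1 are lowest in CD25lo Foxp3+ cells, at -1.43 and -1.58.

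Across the individual probe sets the pattern was alike. Of 30 measured probe sets, 25 were highest in CD25- Foxp3- cells, where 30.1% of all measured probe sets were highest. None was highest in CD25+ Foxp3- cells, where 30.8% of all measured probe sets were. CD25lo Foxp3+ cells were lowest on 15 and CD25+ Foxp3- cells on 13, against 27.0% and 29.8% of all measured probe sets. Probe sets of a gene share its RNA and are not replicates. The 5 probe sets under the filter, from Foxo1, Foxo3, Foxp1, Bach2 and Tsc22d3, had values between 4.27 and 28.9 and give no level.

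The comparisons that leave out the CD25- Foxp3- array divided the genes. Between CD25hi Foxp3+ and CD25+ Foxp3- cells Klf2, Foxo1 and Tsc22d3 were higher in the Foxp3+ cells, at log2 1.45, 1.09 and 1.48, and none of the 9 was lower, against 4.82% of all measured genes higher and 6.84% lower. All 3 measured Foxo1 probe sets and 2 of 3 of Tsc22d3 reached 2-fold in it. Between CD25lo Foxp3+ and CD25+ Foxp3- cells Foxo1 was higher by 1.06 and Bach2 and Satb1 stood at -1.30 and -1.14, against 5.17% higher and 9.04% lower. Here all 3 measured probe sets of Foxo1, 2 of 2 of Bach2 and 2 of 5 of Satb1 reached 2-fold. Between CD25hi and CD25lo Foxp3+ cells only Bach2 differed by 2-fold on the brightest probe sets, with 1.07 in favour of CD25hi cells, against 3.21% of genes higher and 2.50% lower. Satb1, at 0.87, and Tsc22d3, at 0.71, did not reach that size there. Of the 5 measured Satb1 probe sets, however, 3 were 2-fold higher in CD25hi cells, with a median of 1.03 over the 5.

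None of the 9 genes separated the arrays by Foxp3, a pattern found in 2.80% of measured genes with the Foxp3+ pair higher and 1.93% with it lower. Klf2 and Tsc22d3 separated them in the remaining way, with CD25hi Foxp3+ and CD25- Foxp3- cells at least 1.5-fold above CD25lo Foxp3+ and CD25+ Foxp3- cells, which 1.45% of measured genes did, with 1.60% the other way. With the mean of its probe sets, Tsc22d3 no longer reached that gap.

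On the brightest probe sets Klf2 and Tsc22d3 had CD25 contrasts of opposite sign in the Foxp3+ and Foxp3- cells. Each was at least 1.5-fold, though under 2-fold in the Foxp3+ cells. From CD25- to CD25+ among Foxp3- cells, Klf2 stood at -2.12 and Tsc22d3 at -2.32, while from CD25lo to CD25hi among Foxp3+ cells they stood at 0.59 and 0.71. Subtracting the first of these contrasts from the second gave a double difference of 2.72 for Klf2 and 3.03 for Tsc22d3, above 99.5% and 99.7% of measured genes. The other measured Tsc22d3 probe sets had double differences of 2.26 and 0.37. Their CD25lo to CD25hi contrasts, at 0.49 and 0.006, were under 1.5-fold. For Lef1 the double difference was 2.25, from -1.95 among Foxp3- cells and 0.30 among Foxp3+ cells. On the brightest probe sets the double difference was positive for all 9 genes, with 53.8% of measured genes positive, and at least 1 for 7 of them, Klf6 at 0.36 and Foxo1 at 0.94 being the others, where 12.2% of genes reached 1. Of the 30 measured probe sets 28 were positive, and the others, at -0.51 and -0.02, were both of Klf6. These contrasts share no array, and without replicates the difference between them was not tested. The double difference rises with the CD25- Foxp3- reading, the highest for 8 of the 9 genes. It is thus not separate from that peak.

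**Figure D3:**
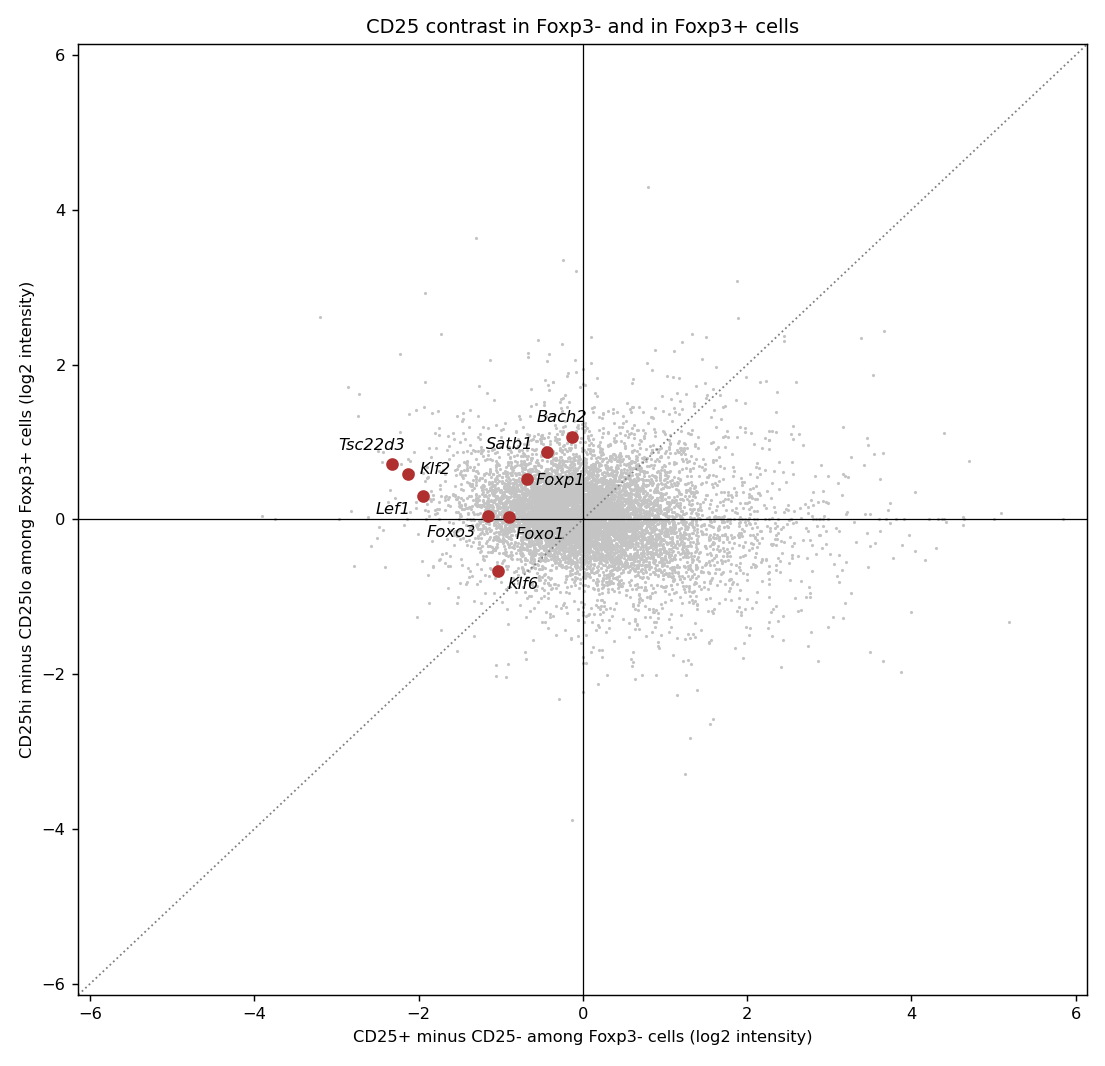
Difference in log2 intensity between CD25hi and CD25lo Foxp3+ cells (vertical) against that between CD25+ and CD25- Foxp3- cells (horizontal) for all measured genes (grey) and the 9 genes described (red), with equality as a dotted line. All 9 lie to the left of zero and above the dotted line, Tsc22d3 and Klf2 farthest, and Klf6 is the only one below zero on the vertical axis, at -0.67.

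Naive surface and trafficking genes were lower in part, the fewest of them in CD25hi Foxp3+ cells. Of 15 measured, counted against CD25- Foxp3- cells, 4 were lower and 1 higher on the CD25hi Foxp3+ array, 7 and 1 on the CD25lo Foxp3+ array and 9 and 1 on the CD25+ Foxp3- array, with medians of -0.41, -0.94 and -1.24. Ccr9, a gut homing receptor, was the higher one in all 3, at log2 1.91, 2.05 and 2.27. Treml2, a receptor of the TREM family, read 1066 on the CD25- Foxp3- array and 1027 on the CD25hi Foxp3+ array but 281 on the CD25+ Foxp3- array and 136 on the CD25lo Foxp3+ array. That put it in the same pairing as Klf2 and Tsc22d3. In CD25lo Foxp3+ cells the widest differences were those of Igfbp4 at -5.00, Dapl1 at -4.62 and Pde3b at -4.52. Ccr7, the lymph node homing receptor, was 4937 on the CD25- Foxp3- array, 3715 on the CD25hi Foxp3+ array, 3329 on the CD25+ Foxp3- array and 1327 on the CD25lo Foxp3+ array, the low population of Bach2 and Satb1.

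Other quiescence genes did not share one direction. Of 20 measured, 6 were lower and 3 higher with CD25 among Foxp3- cells, and the median was -0.09. Txnip stood at -1.51, Pik3ip1 at -1.48 and Klf13 at -1.47, while Rbl2, a pocket protein that restrains E2F factors, was higher by 1.49. Rbl2 read 3449 on the CD25lo Foxp3+ array, 2177 on the CD25+ Foxp3- array, 1697 on the CD25hi Foxp3+ array and 774 on the CD25- Foxp3- array. It was thus lowest where 8 of the 9 transcription factors were highest. Others of the list went either way: in CD25- Foxp3- cells Cdkn2c was lowest, at 111, and Cdkn2d and Btg2 were highest, at 723 and 2965. The family relatives that were measured, 17 in all, had medians near zero against CD25- Foxp3- cells. These were -0.06 in CD25hi Foxp3+, 0.10 in CD25lo Foxp3+ and -0.15 in CD25+ Foxp3- cells. Among the relatives of Tsc22d3, Tsc22d4 had the same order as it, at 868, 744, 539 and 465. Those are readings in CD25- Foxp3-, CD25hi Foxp3+, CD25lo Foxp3+ and CD25+ Foxp3- cells. In that order of populations Tsc22d1 read 1013, 933, 1112 and 491, and Tsc22d2 read 287, 285, 308 and 248.

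Cell cycle and effector genes were read beside these results. Of 31 cell cycle genes, 24 were higher and none lower with CD25 among Foxp3- cells, and the median was 1.94. Against the same CD25- Foxp3- array, 19 were higher and none lower for CD25hi Foxp3+ cells and 16 higher and 1 lower for CD25lo Foxp3+ cells, with medians of 1.20 and 1.15. The replication licensing factor Cdc6 was higher in CD25+ than CD25- Foxp3- cells by 3.42, at 756 against 70.8, and the checkpoint kinase Bub1 by 3.05. Aurkb, a mitotic kinase, read 169 against 15.3, the latter under the filter. Of 20 effector and memory genes, the CD25lo Foxp3+ array had 14 higher and 1 lower (median 1.75), the CD25+ Foxp3- array 13 higher and none lower (median 1.30) and the CD25hi Foxp3+ array 8 higher and 5 lower (median 0.78). S100a4, a calcium-binding protein of memory cells, read 9154 on the CD25lo Foxp3+ array, 2634 on the CD25hi Foxp3+ array, 2205 on the CD25+ Foxp3- array and 572 on the CD25- Foxp3- array. The 16 measured T cell identity genes had a median of -0.52 on the CD25+ Foxp3- array, against -0.15 in CD25hi and 0.06 on the CD25lo Foxp3+ array. The medians of 12 housekeeping genes were 0.03, 0.04 and 0.09 in the same order. The part of cell cycle stage, memory cell content or T cell RNA content in the levels of the 9 genes was not tested.

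**Figure D4:**
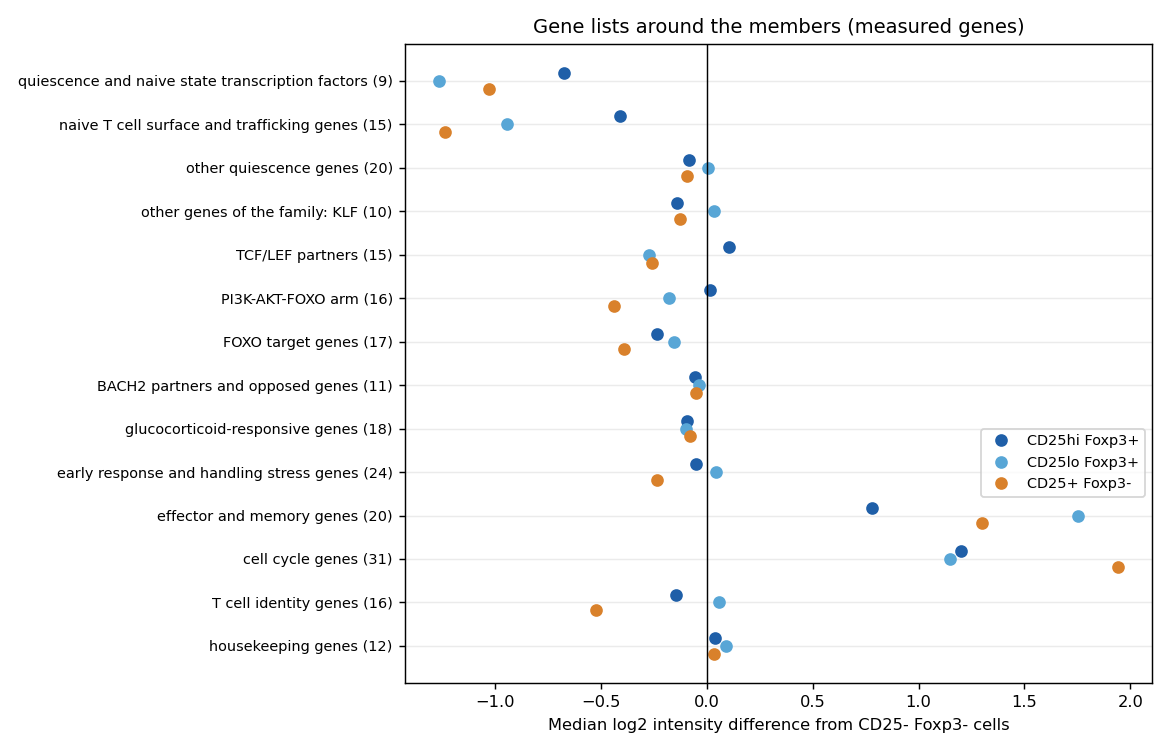
Median difference in log2 intensity from CD25- Foxp3- cells of the 9 genes and of other gene lists in 3 populations, 1 array each. The 9 genes and the naive surface genes lie below zero in all 3, cell cycle genes reach 1.94 on the CD25+ Foxp3- array and effector and memory genes 1.75 on the CD25lo Foxp3+ array, and housekeeping genes stay within 0.09 of zero.

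For the remaining genes the nearest patterns were as follows, each as a root mean square distance over the 4 populations. Lef1 was nearest to Pik3r5, a regulatory subunit of PI3K gamma, at 0.04. Klf6 was nearest to the splicing kinase gene Srpk2 at 0.04 and had the IL-6 receptor gene Il6ra at 0.09. Foxo1 lay at 0.04 from Dgat1, an enzyme of triglyceride synthesis, and Foxo3 at 0.02 from Plekhg2 and from Nlrc5, an activator of MHC class I genes. Foxp1 was nearest to Mtx1 at 0.03, Bach2 to Ralgps2 at 0.06 and the nuclear factor gene Nfix at 0.07, and Satb1 to the amino acid transporter gene Slc7a1 at 0.03.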

How the data were processed

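Expression was measured in 4 sorted CD4+ T cell populations, with 1 array each and groups taken from the sample titles. The deposited values are linear intensities, 1 per probe set. What the authors used for probe summary, background correction and normalization is not stated in the labels or file headers. The platform annotation gave 34945 of 45101 probe sets exactly 1 gene and 932 several, listed none for 9160, and left 64 controls, which were not used. Gene symbols were matched through 34741 Entrez identifiers to RefSeq GRCm38.p6, which changed 0. A floor was set at the 40th percentile over all arrays (10.1), a probe set counted as measured when at least 1 array reached the 60th percentile (32.5), and log2 differences were taken without further scaling. Size rules of 2-fold and 1.5-fold stood in for tests. The counting was tried on simulated data with rises set in both Foxp3+ arrays, which gives no error rate for the size rules on these arrays. Transcription factors and lists were chosen with earlier results of these data known. Named list genes were up to 4 with the largest absolute difference in the comparison described, with family relatives and, for likeness, up to 3 nearest genes. Others (Ccr7, Il7r, S1pr1, Sesn1, Axin2, Ccr9, and Bach2 targets in further comparisons) were chosen after their values were seen. Python 3.11.15, numpy 2.4.6, pandas 2.3.3 and matplotlib 3.10.9 were used.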

Additional observations from a re-analysis of the deposited data

Results flagged for a closer look

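On the brightest probe sets Klf2 and Tsc22d3 differed in opposite directions with CD25 in the Foxp3+ and Foxp3- cells. For Klf2 the log2 difference was 0.59 from CD25lo to CD25hi among Foxp3+ cells and -2.12 from CD25- to CD25+ among Foxp3- cells, a double difference of 2.72. For Tsc22d3 these values were 0.71, -2.32 and 3.03. Its other measured probe sets had 0.49, -1.77 and 2.26, and 0.006, -0.37 and 0.37, so their Foxp3+ contrasts were under 1.5-fold. On the brightest probe sets the same double difference describes the Foxp3 contrast. That was 1.45 for Klf2 and 1.48 for Tsc22d3 between CD25hi Foxp3+ and CD25+ Foxp3- cells. Between CD25lo Foxp3+ and CD25- Foxp3- cells it was -1.26 and -1.55. Of all measured genes, 246 (2.56%) had the opposite CD25 contrasts in this direction at 1.5-fold or more and 278 (2.89%) the opposite Foxp3 contrasts. The difference was not tested, since each group had 1 array.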

How the results depend on the processing

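No paired analysis was possible because each group had 1 array, and the replicate number is only a name. Another scaling of the arrays, another floor and another filter kept every count of the 9 genes within 1.5 times its value. With the mean of a gene's probe sets, 2 genes in place of 1 were 2-fold apart between CD25hi and CD25lo Foxp3+ cells, 0 in place of 1 separated by the CD25 label and 1 in place of 2 by neither marker. With 1.5-fold in place of 2-fold, 5 genes in place of 1 counted between CD25hi Foxp3+ and CD25- Foxp3- cells, all lower, where 9.21% of all measured genes were lower. Between CD25lo Foxp3+ and CD25+ Foxp3- cells 7 in place of 3 counted, 5 higher and 2 lower, against 13.7% and 18.8% of all genes. Between CD25hi and CD25lo Foxp3+ cells 5 in place of 1 counted, 4 higher and 1 lower, against 10.99% and 8.09%. With a 2-fold gap, 0 separated by the CD25 label and 0 by neither marker. In all, 64 of 72 counts stayed within 1.5 times and 8 did not. Of 432 differences of single genes, 411 kept their side of the size rule, 17 passed it newly, 4 lost it and 0 reversed. Both totals include the floor and filter settings, each with 9 counts and 54 differences that could not change. Of the 17, 15 came from the 1.5-fold rule, which can only add such calls. The other 2, and all 4 that were lost, came from the mean of probe sets, among 54 differences. Readings near the floor of 10.1 give no reliable fold.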
